A study of Mus musculus with 10 samples.

Results

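The genes described here encode the machinery that carries new proteins into the endoplasmic reticulum (ER) and the coat proteins of the vesicles that move them between the ER and the Golgi. They were taken by a rule on gene symbols, but the set was chosen with earlier results of these data known. Its counts beside those of all rows are therefore descriptions. The rule takes symbols that start with Sec11, Sec13, Sec16, Sec22, Sec23, Sec24, Sec31, Sec61, Sec62, Sec63, Ssr1 to Ssr4, Spcs, Srp9, Srp14, Srp19, Srp54, Srp68, Srp72 or Srpr, and the 9 symbols Copa, Copb1, Copb2, Copg1, Copg2, Cope, Copz1, Copz2 and Arcn1. The rule found 49 of the 24839 rows of the expression table. Of these, 25 belong to ER translocation, 20 to the vesicle coats, and 4 to the Sec22 proteins and Sec23ip.

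Messenger RNA of mouse small intestinal epithelial cells was sequenced in 10 libraries. The HCD group (5 libraries) takes its name from the high cellulose diet in the title of the series and carries the treatment label OVA, for ovalbumin, the egg white allergen. The NCD group (5 libraries) is labelled untreated, and the labels do not spell out its abbreviation. The study's design fed the diets for 60 days and then described 4 groups, each diet with ovalbumin or with saline. Ovalbumin was given by intraperitoneal injection of 50 µg with 1 mg of an alum adjuvant on days 0 and 14, and then as 5 oral doses of 50 mg. The titles name NCD and HCD alone, 2 of those groups, so diet, ovalbumin and the order in which libraries were numbered cannot be told apart between HCD and NCD. The sources used here give no strain, sex or age, and no label states that each library is a separate mouse, so p-values measure the spread between these libraries.

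Proteins with a signal sequence are recognised on the ribosome by the signal recognition particle (SRP), brought to its receptor on the ER membrane and threaded through the Sec61 channel, where signal peptidase removes the signal. Finished proteins leave the ER in vesicles with a COPII coat, and vesicles with a COPI coat bring escaped ER proteins and membrane back. In the intestine this route makes mucus, antimicrobial peptides, brush border enzymes and the lipoprotein particles of enterocytes.

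Values are FPKM, which put fragments on a scale of transcript length and library size, so levels may be compared between genes per length. Their sum was 539751 to 634279 per library, and read totals were not used here. The share of summed FPKM from the 13 protein-coding mitochondrial genes was 14.8% to 29.5% in HCD, highest in HCD replicate 1, and 3.23% to 5.76% in NCD. Values are scaled by library size, so a higher mitochondrial share tends to lower the values of the other genes. The counts of lower genes are therefore also given on values rescaled without mitochondrial genes. The epithelial label fitted the defining markers, since Epcam was 238 to 413 FPKM in HCD and 457 to 674 FPKM in NCD. Other cells were present as well: the 14 T cell and intraepithelial lymphocyte markers summed to 1985 to 3897 FPKM in HCD and 296 to 938 FPKM in NCD, and all 14 rose in HCD. In bulk RNA, fewer cells of a type and less RNA per cell cannot be told apart.

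In HCD, 15 of the 24 tested translocation genes and 4 of the 18 tested coat genes fell, on values as deposited. Each difference is HCD minus NCD of log2(FPKM + 1), and a gene is called lower or higher at an adjusted p under 0.05 by limma over the 10321 rows with a mean of at least 1 FPKM. Of the 49 genes, 46 reached that level, 20 were lower, none was higher and 26 were not called. Over all tested rows the shares were 19.2% lower and 7.13% higher, and the count of lower coat genes was near the former. Without adjustment, 24 of the 46 were lower and 0 higher at a limma p under 0.05. The median difference was -0.41 over the 46 genes and -0.19 over all tested rows. In 13 of the 46, every HCD library lay below every NCD library, which was so for 12.9% of all tested rows, and none had every HCD library above, which was so for 4.53% of all rows.

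The 15 lower translocation genes came from all 5 groups of that pathway, and the median difference was -0.62 over the 24 tested translocation genes and -0.30 over the 18 coat genes. Transcript length differed between both sets, and among the 23 longer transcripts 1 of 7 translocation genes and 3 of 13 coat genes were lower. Both counts were near the 19.2% of all tested rows. On values rescaled without mitochondrial genes, 12 of the 46 genes were lower and none higher, against 8.34% and 9.07% of all rows, the median of all rows was -0.05 and that of the 46 was -0.25. Of those 12, 10 were translocation genes and 1 was a coat gene. Quantile normalization gave 11 lower and none higher, against 8.56% and 8.99% of all rows, with medians of -0.22 for the 46 and -0.06 for all rows. The 11 genes lower as deposited, under both of these scalings and under a correction for transcript length and GC content were Srp9, Srpr, Srprb, Sec61a1, Sec61b, Ssr1, Ssr2, Sec11a, Spcs2, Sec23b and Sec22b.

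**Figure D1:**
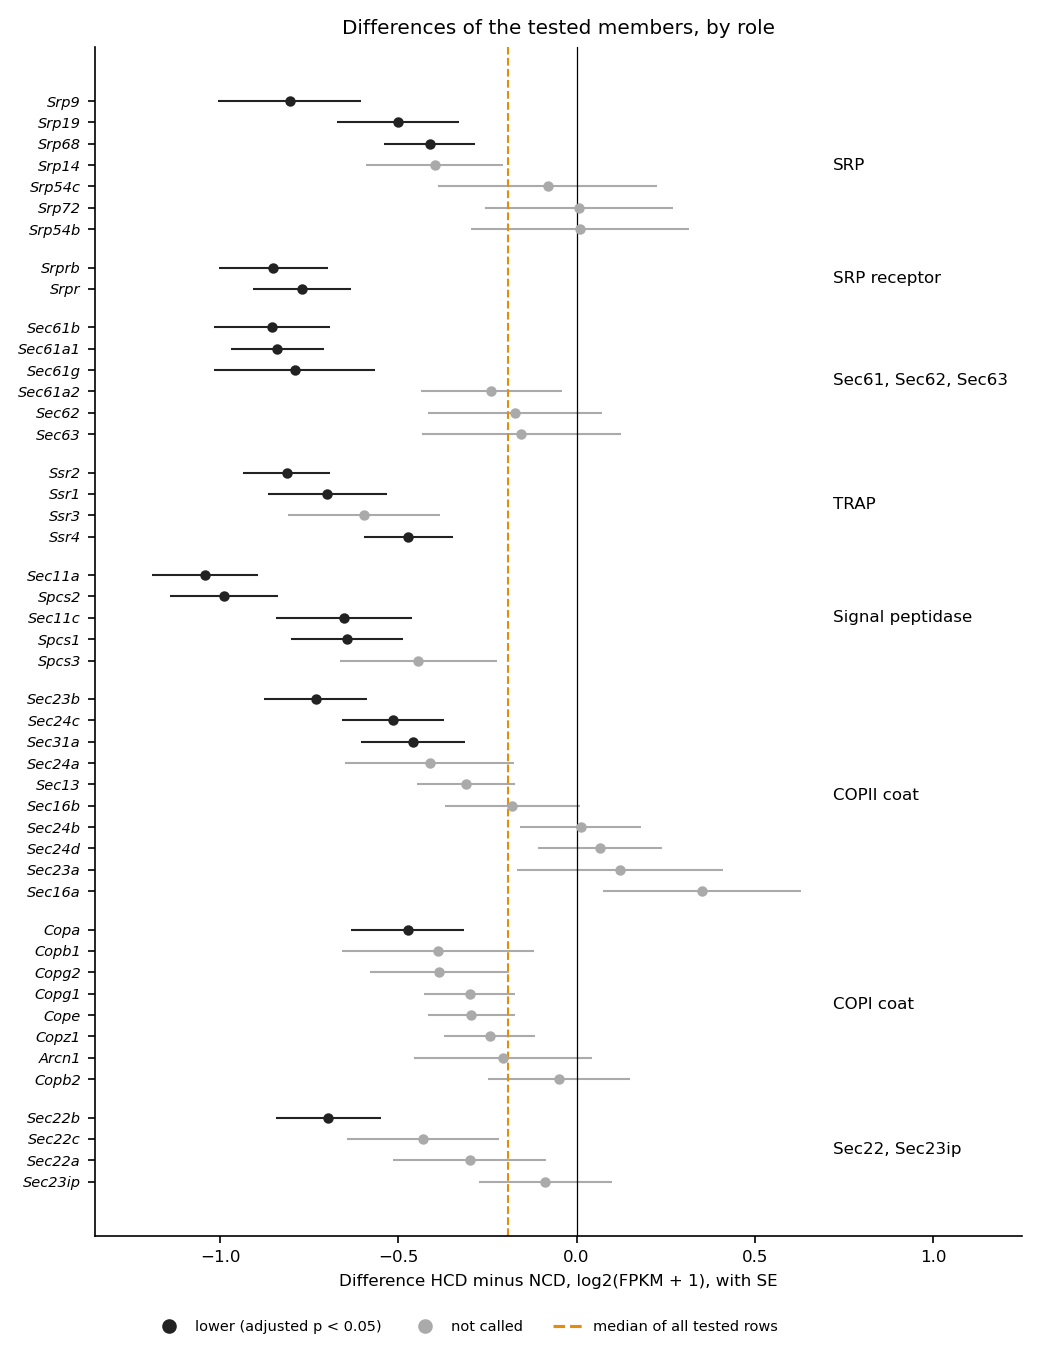
Difference HCD minus NCD of each of the 46 tested genes on the log2(FPKM + 1) scale (horizontal axis, point with standard error), grouped by role down the page; black points are called lower, grey points are not called, and the dashed line is the median of all tested rows at -0.19. The black points lie mostly in the upper groups, from SRP to signal peptidase, where 15 of 24 genes were lower, against 4 of 18 in the COPII and COPI groups. Of all tested rows, 19.2% were lower.

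SRP is a ribonucleoprotein whose protein subunits bind the ribosome, the signal sequence or the RNA scaffold. Of its 7 tested genes 3 were lower as deposited, and 1, Srp9, on values rescaled without mitochondrial genes. Over all tested rows these shares were 19.2% and 8.34%, and the rescaled count of 1 gene was near the latter. Srp9, which with Srp14 forms the part that slows elongation on the ribosome (chr1:182124737-182132407, plus strand, GRCm38), had 16.6, 15.4, 24.4, 21.4 and 13.2 FPKM in HCD, against 47.1, 24.9, 36.3, 26.0 and 29.2 FPKM in NCD. The highest HCD library lay just under the lowest NCD library. The difference was -0.81 ± 0.20 (SE, limma adjusted p = 0.0105).

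Its partner Srp14 had 51.8, 27.1, 56.5, 45.1 and 36.4 FPKM in HCD, against 65.1, 46.9, 45.9, 68.0 and 55.9 FPKM in NCD. The groups overlapped and Srp14 was not called, at -0.40 ± 0.19 (limma adjusted p = 0.140). Srp68, a subunit that binds the SRP RNA, had 25.7, 31.0, 36.2, 29.5 and 29.9 FPKM in HCD, against 40.8, 36.5, 48.0, 37.1 and 41.7 FPKM in NCD. The groups did not overlap, though by a narrow margin, and the difference was -0.41 ± 0.13 (adjusted p = 0.0292). Srp19, an RNA-binding subunit needed for assembly, had 5.72, 9.47, 7.46, 7.87 and 6.71 FPKM in HCD, against 13.3, 8.23, 12.5, 9.97 and 10.8 FPKM in NCD. HCD replicate 2 lay above NCD replicate 2, and the difference was -0.50 ± 0.17 (adjusted p = 0.0449). On values rescaled without mitochondrial genes neither Srp68 (limma adjusted p = 0.210) nor Srp19 (adjusted p = 0.199) was called, and both calls depended on single libraries. Srp68 missed the threshold without any 1 of HCD replicates 1, 4 and 5 or NCD replicates 1, 3 and 5 (adjusted p up to 0.0795). Srp19 kept its call only without HCD replicate 2 or NCD replicate 2 (adjusted p up to 0.114 without the others).

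Srp72, another RNA-binding subunit, averaged 5.46 ± 1.69 FPKM in HCD and 5.65 ± 2.36 FPKM in NCD (SD, n = 5 each) and was not called. The signal-binding GTPase subunit is given by 3 near copies next to each other on chromosome 12, whose division of reads is uncertain. Srp54b averaged 3.38 FPKM in HCD and 3.00 FPKM in NCD, and Srp54c 2.36 and 2.34 FPKM. Neither was called, and Srp54a, at 0.880 FPKM in HCD and 0.840 FPKM in NCD, was below the level tested.

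The SRP receptor accepts the ribosome with its nascent chain at the ER membrane, and both of its subunits fell, also on values rescaled without mitochondrial genes. Among all tested rows, 19.2% fell as deposited and 8.34% on the rescaled values. Srpr, the SRP-binding GTPase (chr9:35200175-35247973, plus strand), had 13.5, 17.8, 16.3, 16.9 and 17.7 FPKM in HCD, against 29.8, 26.8, 35.4, 24.4 and 27.9 FPKM in NCD. Srprb, the membrane anchor (chr9:103188032-103202137, minus strand), had 11.1, 8.94, 12.7, 9.83 and 12.8 FPKM in HCD, against 21.9, 21.3, 24.6, 16.1 and 20.03 FPKM in NCD. In neither gene did the groups overlap. The differences were -0.77 ± 0.14 for Srpr (limma adjusted p = 0.00178) and -0.85 ± 0.15 for Srprb (adjusted p = 0.00193).

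The Sec61 channel consists of an alpha, a beta and a gamma subunit, and all 3 widely expressed subunits fell as deposited. On values rescaled without mitochondrial genes, Sec61g missed the threshold (limma adjusted p = 0.0587). The shares of all tested rows called lower were 19.2% as deposited and 8.34% on the rescaled values. Sec61a1, the pore itself (chr6:88503579-88518905, minus strand), had 63.5, 63.1, 69.7, 79.2 and 80.3 FPKM in HCD, against 127, 132, 148, 100.002 and 136 FPKM in NCD. Every HCD library was clearly below every NCD library, by -0.84 ± 0.13 (limma adjusted p = 0.000816). Sec61b (chr4:47474658-47483242, plus strand) had 137, 92.3, 153, 121 and 115 FPKM in HCD, against 258, 226, 178, 275 and 186 FPKM in NCD. The groups were again apart, by -0.86 ± 0.16 (adjusted p = 0.00259). Sec61g had 32.4, 13.2, 28.3, 23.6 and 24.9 FPKM in HCD, against 49.6, 44.9, 28.2, 53.1 and 36.4 FPKM in NCD. NCD replicate 3 fell within the HCD range, the difference was -0.79 ± 0.23 (adjusted p = 0.0201), and without NCD replicate 1 the adjusted p was 0.0537.

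The remaining genes of this group were scarce and none was called. The second alpha subunit Sec61a2 averaged 1.06 ± 0.396 FPKM in HCD and 1.42 ± 0.363 FPKM in NCD. Sec62, which serves translocation after translation, averaged 3.18 ± 1.48 FPKM in HCD and 3.57 ± 0.978 FPKM in NCD. Sec63, its partner that recruits the lumenal chaperone, averaged 2.16 ± 0.942 FPKM in HCD and 2.57 ± 1.19 FPKM in NCD. Their differences lay between -0.24 and -0.15.

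The TRAP complex (translocon-associated protein, genes Ssr1 to Ssr4) sits beside the channel and aids the entry of some signal sequences. Of the 4 genes 3 were lower as deposited, and 2 on values rescaled without mitochondrial genes, where Ssr4 missed the threshold (limma adjusted p = 0.0989). All tested rows had shares of 19.2% lower as deposited and 8.34% on the rescaled values. Ssr2, over all libraries the most abundant gene of translocation (chr3:88575876-88588419, plus strand), had 175, 154, 158, 185 and 202 FPKM in HCD, against 359.8, 311, 307, 289 and 274 FPKM in NCD. The groups were far apart, by -0.81 ± 0.12 (limma adjusted p = 0.000635). Ssr1 had 3.99, 4.52, 3.98, 4.33 and 4.51 FPKM in HCD, against 8.74, 5.21, 8.94, 7.78 and 7.63 FPKM in NCD. The HCD libraries lay close together and below all NCD libraries, by -0.70 ± 0.17 (adjusted p = 0.00872). Ssr4 had 174, 146, 164, 214 and 183 FPKM in HCD, against 254, 248, 209, 258 and 248 FPKM in NCD. HCD replicate 4 lay above NCD replicate 3, and the difference was -0.47 ± 0.13 (adjusted p = 0.0141). Ssr3 averaged 12.6 ± 3.27 FPKM in HCD and 19.6 ± 5.72 FPKM in NCD and missed the threshold as deposited, at -0.60 ± 0.21 (adjusted p = 0.0530), but passed without HCD replicate 2 or 4 or NCD replicate 2 or 4 (lowest adjusted p = 0.0370).

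Signal peptidase cleaves signal sequences in the ER lumen, and 4 of its 5 genes were lower as deposited. On values rescaled without mitochondrial genes 3 were, and Sec11c missed the threshold (limma adjusted p = 0.0891). For all tested rows the shares were 19.2% as deposited and 8.34% on the rescaled values. Sec11a, a catalytic subunit (chr7:80904889-80947780, minus strand), had 29.8, 28.9, 39.0, 28.7 and 23.0 FPKM in HCD, against 72.1, 52.1, 64.7, 67.0 and 54.9 FPKM in NCD. It had the lowest difference of the 46 genes, at -1.04 ± 0.15 (limma adjusted p = 0.000476), with an NCD mean 2.08-fold that of HCD. Spcs2, an accessory subunit (chr7:99837569-99863462, minus strand), had 36.1, 32.2, 37.3, 34.2 and 24.2 FPKM in HCD, against 71.9, 67.6, 80.3, 57.8 and 52.7 FPKM in NCD. Here too every HCD library lay below every NCD library, by -0.99 ± 0.15 (adjusted p = 0.000722).

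Spcs1, the small accessory subunit, had 71.7, 57.1, 102, 72.5 and 61.7 FPKM in HCD, against 133, 95.9, 113, 123 and 101 FPKM in NCD. HCD replicate 3 reached into the NCD range, and the difference was -0.64 ± 0.16 (limma adjusted p = 0.00979). The second catalytic subunit Sec11c averaged 16.0 ± 2.36 FPKM in HCD and 26.4 ± 7.72 FPKM in NCD, a difference of -0.65 ± 0.19 (adjusted p = 0.0220). That call was lost without NCD replicate 1 or NCD replicate 3 (adjusted p up to 0.0592). Spcs3 averaged 3.25 ± 1.15 FPKM in HCD and 4.76 ± 1.27 FPKM in NCD and was not called (adjusted p = 0.150).

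**Figure D2:**
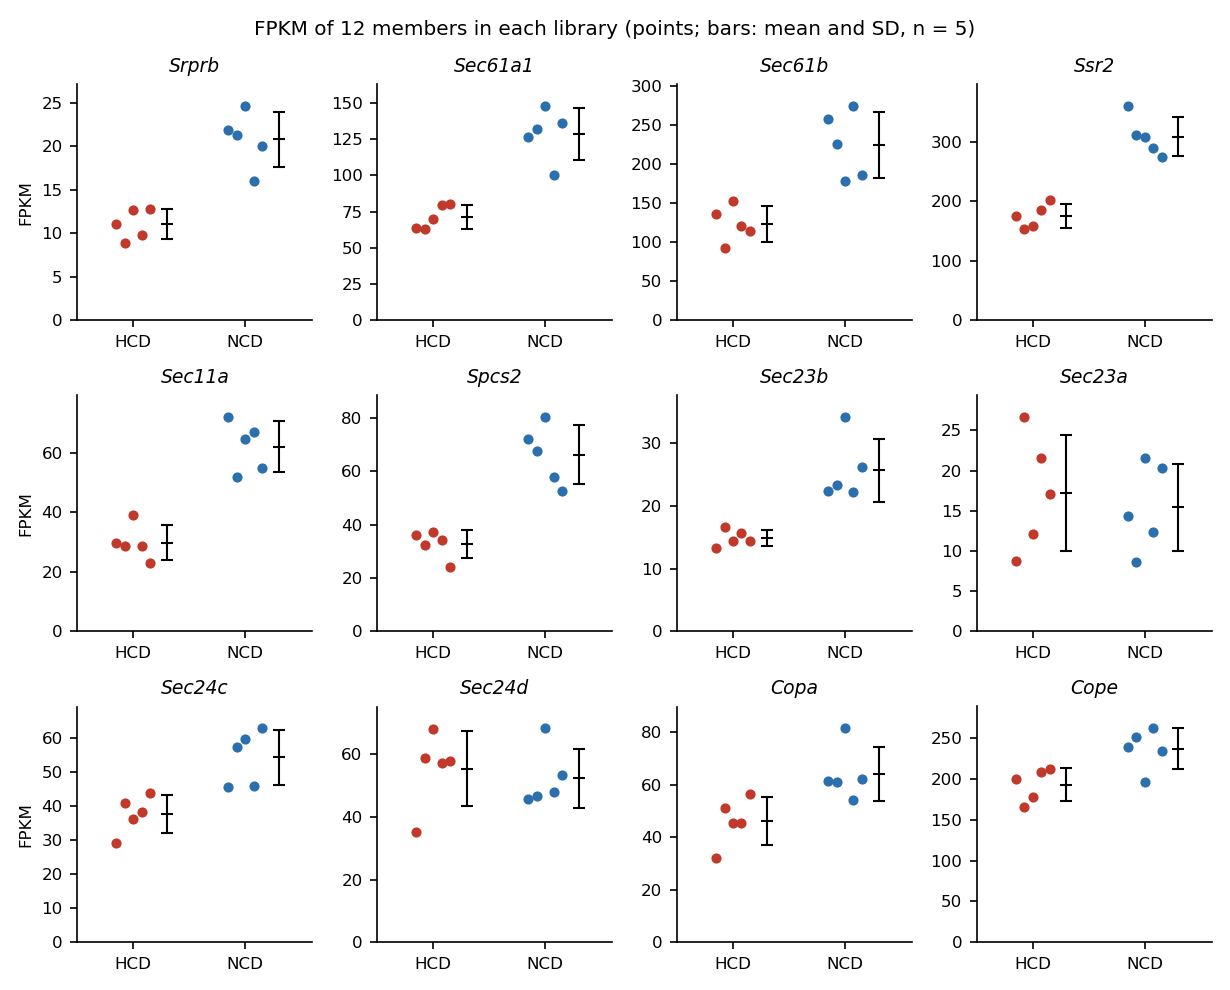
FPKM (vertical axis, from 0) of 12 genes in each HCD (red) and NCD (blue) library, with mean and SD (bars, n = 5 each). The HCD points lie below all NCD points for Srprb, Sec61a1, Sec61b, Ssr2, Sec11a, Spcs2, Sec23b and Sec24c, while Sec23a, Sec24d, Copa and Cope overlap.

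In the COPII coat, an inner layer of Sec23 and Sec24 selects cargo and an outer cage of Sec13 and Sec31 bends the membrane. Over all tested rows, 19.2% were lower as deposited and 8.34% on values rescaled without mitochondrial genes. Of the 10 tested COPII genes 3 were lower as deposited, and 1, Sec23b, on the rescaled values, near the latter share. There Sec24c had a limma adjusted p of 0.136 and Sec31a of 0.203. Sec23b, the form of the inner layer whose loss causes a congenital anaemia in humans (chr2:144556229-144590749, plus strand), had 13.3, 16.7, 14.4, 15.6 and 14.4 FPKM in HCD, against 22.4, 23.2, 34.1, 22.1 and 26.2 FPKM in NCD. The groups did not overlap, with a difference of -0.73 ± 0.14 (limma adjusted p = 0.00325). Its paralog Sec23a had 8.76, 26.7, 12.1, 21.6 and 17.1 FPKM in HCD, against 14.3, 8.65, 21.6, 12.3 and 20.3 FPKM in NCD. These ranges covered each other, and Sec23a was not called, at 0.12 ± 0.29 (adjusted p = 0.789).

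The cargo-binding Sec24 genes showed a similar contrast. Sec24c (chr14:20674308-20694852, plus strand) had 29.2, 40.9, 36.4, 38.4 and 44.0 FPKM in HCD, against 45.7, 57.4, 59.8, 46.0 and 63.1 FPKM in NCD. Every HCD library was below every NCD library, by -0.51 ± 0.14 (limma adjusted p = 0.0183). Sec24d, about as abundant, had 35.3, 58.7, 68.1, 57.3 and 57.7 FPKM in HCD, against 45.6, 46.6, 68.4, 47.9 and 53.3 FPKM in NCD. It was not called, at 0.07 ± 0.17 (adjusted p = 0.810), with HCD replicate 1 lowest of all libraries. Sec24a averaged 9.74 ± 3.48 FPKM in HCD and 12.9 ± 2.74 FPKM in NCD, and Sec24b 5.47 ± 1.09 FPKM in HCD and 5.38 ± 0.714 FPKM in NCD. Neither was called.

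Of the outer cage, Sec31a had 74.4, 137, 101, 96.5 and 105 FPKM in HCD, against 139, 134, 152, 128 and 144 FPKM in NCD. HCD replicate 2 lay within the NCD range, and the difference was -0.46 ± 0.15 (limma adjusted p = 0.0316), a call lost without any 1 of HCD replicates 1, 3 and 4 or NCD replicates 1, 3 and 5 (up to 0.0758). Sec13, which also serves in the nuclear pore and was the most abundant COPII gene, had 122, 143, 205, 179.8 and 161 FPKM in HCD, against 211, 192, 203, 188 and 198 FPKM in NCD. It was not called, at -0.31 ± 0.14 (adjusted p = 0.111), but passed without HCD replicate 3 (adjusted p = 0.0444). The scaffold genes of ER exit sites were not called: Sec16a averaged 12.3 ± 3.74 FPKM in HCD and 9.92 ± 4.87 FPKM in NCD, and Sec16b 16.2 ± 2.49 FPKM in HCD and 18.9 ± 5.57 FPKM in NCD. Sec31b was below the level tested, at 0.244 FPKM in HCD and 0.0737 FPKM in NCD.

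The COPI coat is a complex of 7 kinds of subunit recruited to Golgi membranes as a block. Copa, its alpha subunit (chr1:172082529-172122330, plus strand), was the only one of the 8 tested genes called lower, against 19.2% of all tested rows. Copa had 32.2, 51.2, 45.4, 45.5 and 56.6 FPKM in HCD, against 61.3, 61.2, 81.6, 54.0 and 62.2 FPKM in NCD. HCD replicate 5 lay above NCD replicate 4, and the difference was -0.47 ± 0.16 (limma adjusted p = 0.0404), a call lost without any 1 of HCD replicates 1, 3 and 4 or NCD replicates 1, 2, 3 and 5 (up to 0.107). Cope, the epsilon subunit and the most abundant, had 199.6, 166, 177, 209 and 211 FPKM in HCD, against 239, 251, 196, 262 and 234 FPKM in NCD. Only NCD replicate 3 fell within the HCD range, and Cope was not called, at -0.30 ± 0.12 (adjusted p = 0.0881). Copg1, a gamma subunit, had 30.0, 38.6, 39.4, 37.2 and 44.6 FPKM in HCD, against 45.6, 43.9, 54.3, 45.0 and 45.1 FPKM in NCD. It was not called either, at -0.30 ± 0.13 (adjusted p = 0.0986).

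All 8 tested COPI differences were negative, from -0.47 to -0.05, and their median of -0.30 stood beside -0.19 for all tested rows. On values rescaled without mitochondrial genes the median was -0.13, against -0.05 for all rows, and limma called 0 of the 8, also without adjustment at p under 0.05. The zeta subunit Copz1 averaged 178 ± 25.1 FPKM in HCD and 210.2 ± 21.7 FPKM in NCD. The beta subunits were less abundant, with Copb1 at 11.6 ± 4.41 FPKM in HCD and 15.3 ± 5.02 FPKM in NCD, and Copb2, the beta-prime subunit, at 25.6 ± 6.93 FPKM in HCD and 26.4 ± 6.31 FPKM in NCD. Arcn1, the delta subunit, averaged 17.0 ± 6.93 FPKM in HCD and 18.8 ± 4.19 FPKM in NCD, and Copg2 3.12 ± 0.641 FPKM in HCD and 4.42 ± 1.17 FPKM in NCD. None of these was called, and Copz2 was below the level tested.

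Sec22b is a SNARE that fuses vesicles between ER and Golgi, and it fell. It had 12.8, 16.9, 22.1, 17.7 and 17.7 FPKM in HCD, against 26.8, 25.2, 31.6, 28.6 and 30.5 FPKM in NCD. The groups did not overlap, with a difference of -0.70 ± 0.15 (limma adjusted p = 0.00453). Its relatives Sec22a and Sec22c lack the SNARE motif. Sec22a had 2.74, 3.73, 6.39, 3.07 and 3.54 FPKM in HCD, against 6.24, 5.09, 5.84, 3.59 and 3.95 FPKM in NCD. Sec22c had 4.18, 6.23, 4.19, 7.48 and 4.57 FPKM in HCD, against 7.33, 6.82, 9.85, 4.68 and 9.14 FPKM in NCD. Both overlapped between groups, with differences of -0.30 for Sec22a and -0.43 for Sec22c. Neither these nor Sec23ip, a lipid-binding partner of Sec23 with a difference of -0.09, were called.

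**Figure D3:**
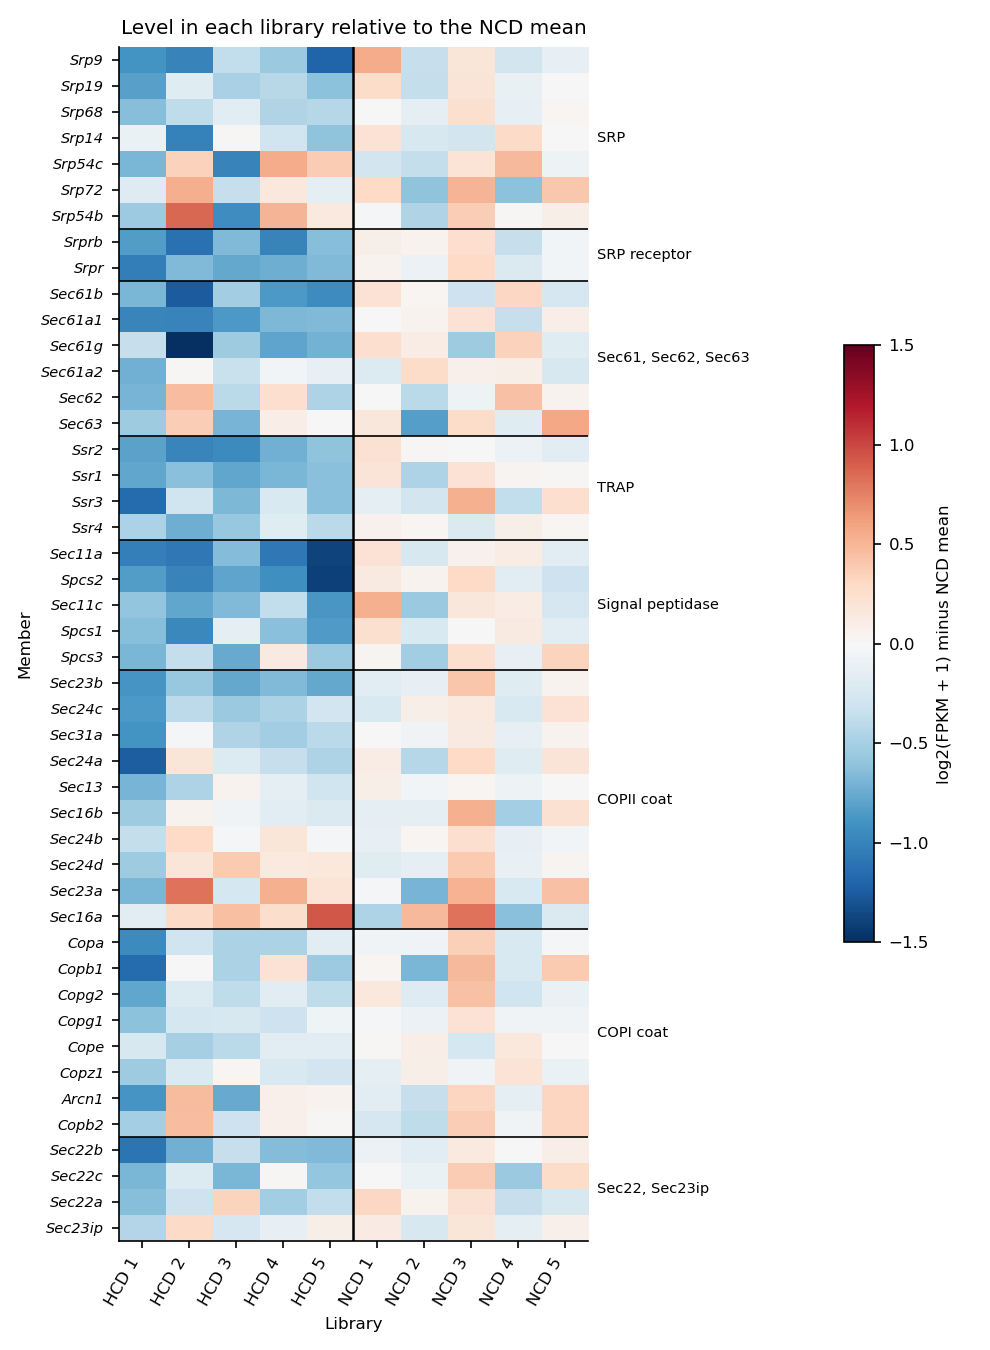
Level of each of the 46 tested genes in each library (columns, HCD left of NCD) as log2(FPKM + 1) minus the NCD mean of the same gene; blue is lower and red higher than the NCD mean, and black lines divide the role groups. The HCD columns are blue in nearly every translocation row that was called, while in the coat rows HCD replicate 1 is often darkest and HCD replicate 2 is partly red.

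The libraries of HCD differed among themselves in which genes were low. The median coefficient of variation over the 46 genes was 21.1% in HCD and 19.2% in NCD. Splitting the 46 genes at their median transcript length gave 23 shorter genes (564 to 3172 bases), of which 16 were lower with a median difference of -0.65, and 23 longer genes (3346 to 9333 bases), of which 4 were lower with a median of -0.21. In each library, the median log2 deviation from the group mean was taken for the longer and for the shorter genes. The longer value less the shorter one ran from -0.30 in HCD replicate 1 to 0.41 in HCD replicate 2. After correction for length and GC content in each library, which gave 15 lower and none higher of 46, against 13.7% and 9.96% of all rows, 12 shorter and 3 longer genes were lower. The medians were then -0.48 over the shorter and -0.04 over the longer genes, and -0.06 over all rows. Across the 46 genes the difference and log2 length had r = 0.45, and r = 0.05 across 9741 tested rows; these points share libraries, depth and base composition. Length and role overlapped. Among the shorter genes, 14 of 17 translocation genes (median -0.77) and 1 of 5 coat genes (median -0.30) were lower. Among the longer genes, 1 of 7 translocation genes (Ssr1, median -0.15) and 3 of 13 coat genes (median -0.30) were lower. Of all tested rows 19.2% were lower as deposited, and the longer genes and the shorter coat genes were near that share. The contrast of translocation with coats thus stood in the shorter genes, of which only 5 were coat genes. After the correction the counts were 10 of 17 and 1 of 5 among the shorter genes, and 1 of 7 and 2 of 13 among the longer ones. The part of length in the contrast was not tested.

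**Figure D4:**
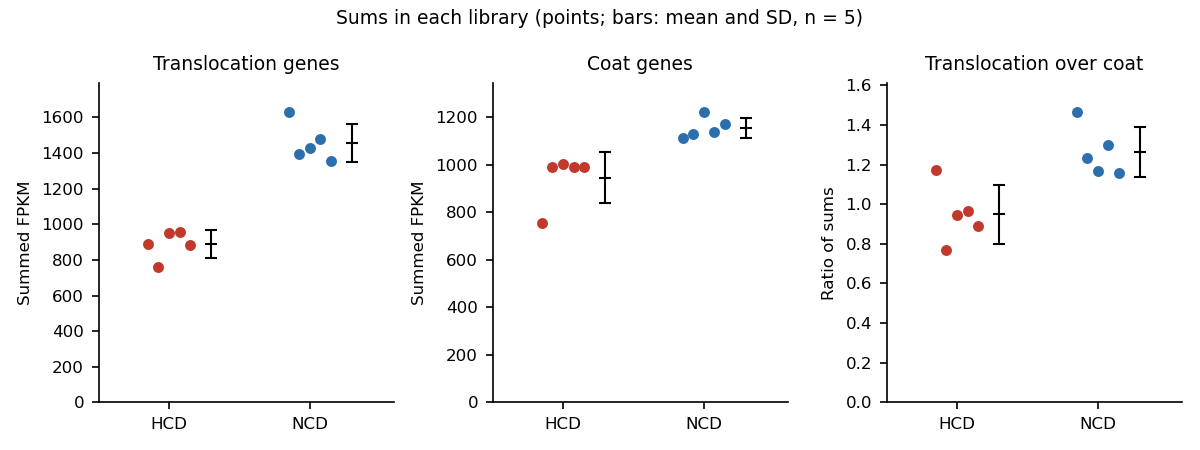
Summed FPKM of the 25 translocation genes (left) and the 20 coat genes (middle), and the ratio of the sums (right), in each HCD (red) and NCD (blue) library, with mean and SD (bars, n = 5 each). On these values as deposited, the translocation sums of HCD lie far below those of NCD. The coat sums are nearer to each other but also do not overlap, and 1 HCD ratio overlaps the NCD ratios.

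Sums over genes weight the abundant members most. The 25 translocation genes summed to 888 ± 78.1 FPKM in HCD and 1457 ± 107 FPKM in NCD (SD, n = 5 each). The 20 coat genes summed to 947 ± 107 FPKM in HCD and 1155 ± 43.0 FPKM in NCD, and the lowest coat sum was that of HCD replicate 1, at 755 FPKM. The ratio of both sums averaged 0.949 ± 0.147 in HCD and 1.26 ± 0.126 in NCD, ranging over 0.769 to 1.17 in HCD and 1.16 to 1.46 in NCD. The share of mitochondrial RNA scales both sums alike. No test was made of the ratio, since the genes were chosen with results known. All 49 genes together made up 0.372% to 0.403% of non-mitochondrial FPKM in HCD and 0.469% to 0.525% in NCD.

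For related genes of the same family, log2 ratios of FPKM + 1 were compared by exact two-sided permutation tests over the 10 libraries. These cannot give a p under 0.00794 and were adjusted over 7 pairs. The genes were chosen with results known, so the p-values only describe these libraries and are no independent support. Sec24c over Sec24d averaged -0.52 ± 0.23 in HCD and 0.06 ± 0.21 in NCD (SD, n = 5 each), an exact p of 0.00794 and an adjusted p of 0.0370. Sec23b over Sec23a averaged -0.11 ± 0.49 in HCD and 0.75 ± 0.36 in NCD (exact p = 0.0159, adjusted p = 0.0370). In both pairs the first gene was relatively lower in HCD. With a pseudocount of 0.1 in place of 1 the difference between groups was -0.59 for Sec24c over Sec24d and -0.89 for Sec23b over Sec23a, and both just missed the threshold (exact test, adjusted p = 0.0556 each). Sec61a1 over Sec61a2 also had an adjusted p of 0.0370 by the exact test, at a difference of -0.60, but Sec61a2 is near 1 FPKM, so the added 1 shapes this ratio. With a pseudocount of 0.1 the difference was -0.41 (exact test, adjusted p = 0.324). Each of the 3 pairs passed in 1 of 10 sets that left out 1 library and missed the threshold in the others (adjusted p up to 0.0741), where the smallest p is larger. The other 4 pairs (Sec24a over Sec24b, Sec11a over Sec11c, Sec22b over Sec22c and Copg1 over Copg2) did not pass, with exact adjusted p from 0.0778 to 0.484.

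Promoters bear on these genes because the unfolded protein response is known to act on ER genes through short elements. RefSeq windows on GRCm38.p6, from 250 bases before to 50 after the start site, were found for 42 of the 49 genes, 19 of translocation and 19 of the coats. The element TGACGTGG, known as UPRE, was searched on both strands and stood in the windows of 5 genes (11.9%), against 0.714% of the 27025 genes with a window. The stretches that hold it are shown because all 5 are coat genes that were not called, with capitals marking the element or its reverse complement CCACGTCA:
Sec24d (chr3:123267460-123267487, plus strand): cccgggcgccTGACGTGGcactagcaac
Sec23a (chr12:59011994-59012021, minus strand): tcctccccttTGACGTGGcagaggcggc
Sec16b (chr1:157506742-157506769, plus strand): tctgtgtggcTGACGTGGcacggcagtt
Copb1 (chr7:114254691-114254718, minus strand): ccgcccccttCCACGTCAgccaaggact
Copb2 (chr9:98563714-98563741, plus strand): cccggaagttCCACGTCAgtgggttggc
In these 5 genes the differences were 0.07 for Sec24d, 0.12 for Sec23a, -0.18 for Sec16b, -0.39 for Copb1 and -0.05 for Copb2, and none was called. The element was in 5 of 19 coat genes and 0 of 19 translocation genes with a window, and in 0 of the 15 genes called lower with a window. The longer elements ERSE (CCAAT, then 9 free bases, then CCACG) and ERSE-II (ATTGG, then 1 free base, then CCACG) were in none of the 42, against 0.137% and 0.0444% of all genes. The cyclic AMP element TGACGTCA was in Cope alone, against 2.03% of all genes. A match is a description of letters, not a site in use.

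The neighbouring steps of the pathway were followed in 8 lists of genes outside the members. These lists were also chosen with earlier results of these data known, so their counts are no independent support. Of 121 tested genes, 46 were lower and 0 higher as deposited, against 19.2% and 7.13% of all rows. Limma gave 0 higher also without adjustment at p under 0.05. On values rescaled without mitochondrial genes 25 of the 121 were lower, beside 8.34% of all rows, and after quantile normalization 22, beside 8.56%. Translocon partners were lower in 8 of 9 as deposited, with a median of -0.61, and in 5 of 9 without mitochondrial genes, with a median of -0.44; Hspa5, Hyou1 and Nomo1 were among those 5. Hspa5, or BiP, the lumenal chaperone that draws proteins through the channel, averaged 87.5 ± 27.2 FPKM in HCD and 219.9 ± 66.6 FPKM in NCD (SD, n = 5 each), a difference of -1.32 ± 0.24 (limma adjusted p = 0.00199). Hyou1, its nucleotide exchange factor, averaged 24.0 ± 3.02 FPKM in HCD and 56.8 ± 10.5 FPKM in NCD (adjusted p = 0.000189). Nomo1, of a complex beside the translocon, averaged 48.8 ± 6.07 FPKM in HCD and 86.6 ± 12.3 FPKM in NCD (adjusted p = 0.00105).

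The oligosaccharyltransferase, which adds sugar chains to entering proteins, had 8 of 12 genes lower as deposited, with a median of -0.61, and 5 of 12 without mitochondrial genes. Among all rows these shares were 19.2% and 8.34%. Ostc averaged 52.5 ± 10.2 FPKM in HCD and 96.3 ± 12.996 FPKM in NCD (difference -0.87, limma adjusted p = 0.00115), and Rpn1 and Rpn2 had differences of -0.88 and -0.77. The ER membrane complex and tail-anchor insertion genes, which place other membrane proteins, had 6 of 16 lower as deposited and 5 of 16 without mitochondrial genes. By p, the first were Ubl4a at -0.62, Emc3 at -0.71 and Emc6 at -0.73.

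The lists of vesicle traffic had smaller shares of lower genes, from 6 of 30 to 3 of 9 as deposited, and most of these calls were lost without mitochondrial genes. The shares of all rows were 19.2% as deposited and 8.34% without mitochondrial genes. Of the COPII GTPases and assembly factors, 3 of 9 were lower as deposited and 0 of 9 in limma without mitochondrial genes, where 2 had an unadjusted p under 0.05. Sar1a, a GTPase that starts the COPII coat, averaged 16.1 ± 3.43 FPKM in HCD and 24.6 ± 5.22 FPKM in NCD (difference -0.58, limma adjusted p = 0.0296; 0.136 without mitochondrial genes). Its paralog Sar1b, needed for chylomicron export and far more abundant here, averaged 186 ± 64.0 FPKM in HCD and 184 ± 24.5 FPKM in NCD (difference -0.04) and was not called. Their exchange factor Preb had a difference of -0.33 and was not called (adjusted p = 0.102), while Tmem39a at -0.75 and Pdcd6 at -0.47 were lower as deposited, with limma adjusted p of 0.0551 and 0.161 without mitochondrial genes. Of the COPI GTPases and regulators 2 of 10 were lower on both scalings, as deposited near the share of all rows. These 2 were Arf4 at -0.78 and Arf1, the GTPase that recruits COPI, at 326 ± 47.6 FPKM in HCD and 465 ± 17.5 FPKM in NCD (limma adjusted p = 0.00844). Cargo and retrieval receptors had 7 of 21 lower as deposited, 2 without mitochondrial genes and 0 in limma after quantile normalization, where 4 had an unadjusted p under 0.05. By p, the first were Lman2 at -0.50, Tmed10 at -0.56 and Bcap31 at -0.51, of which Bcap31 was not called without mitochondrial genes (limma adjusted p = 0.0672). Tethers and SNAREs had 6 of 30 lower as deposited, near the share of all rows, and 2 of 30 without mitochondrial genes. By p, the first were Gorasp1 at -0.72, Stx5a at -0.51 and Bnip1 at -0.52, of which Bnip1 was not called without mitochondrial genes (adjusted p = 0.0972).

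Of the sensors and factors of the unfolded protein response, 6 of 14 were lower as deposited and 4 of 14 without mitochondrial genes. Among all rows these shares were 19.2% and 8.34%. Xbp1, a transcription factor that drives many ER genes, averaged 105.6 ± 20.5 FPKM in HCD and 170.9 ± 19.5 FPKM in NCD (difference -0.70 ± 0.15, limma adjusted p = 0.00440). FPKM of a gene do not tell its spliced form, which is the active one. Atf4 had a difference of -0.86, Ddit3 of -0.76 and the protease Mbtps1, which cuts Atf6, of -0.71.

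**Figure D5:**
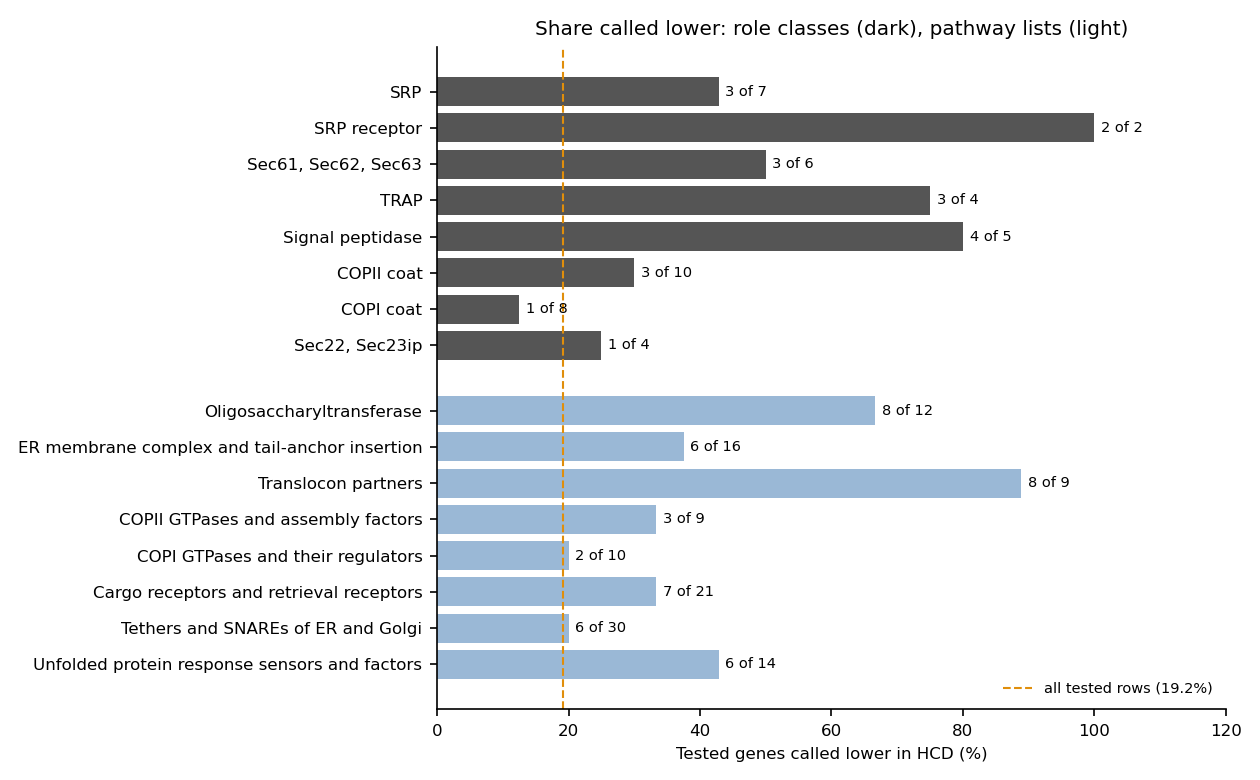
Share of tested genes called lower in HCD on values as deposited (horizontal axis, %) in each role group of the members (dark bars) and each list of pathway genes (light bars), with counts beside the bars; the dashed line marks the 19.2% of all tested rows. Translocon partners (8 of 9), signal peptidase (4 of 5) and the SRP receptor (2 of 2) lie far right of the line, and the COPI coat (1 of 8) left of it.

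Markers of cell types moved beside these genes, and their part in the results was not tested. Among all tested rows, 19.2% were lower and 7.13% higher as deposited, and 8.34% and 9.07% without mitochondrial genes. General epithelial markers were lower in 6 of 8 (5 of 8 without mitochondrial genes), with a median of -0.66 and a sum of 6075 to 8662 FPKM in HCD and 9627 to 10448 FPKM in NCD; Krt20 was higher. Enterocyte markers were higher in 3 of 10 (4 of 10 without mitochondrial genes) and lower in none (median 0.27), and goblet cell markers were called in 0 of 8 by limma, and in 1 without adjustment (median -0.19). Paneth cells, a secretory cell type with much ER, had 5 of 7 tested markers lower (4 of 7 without mitochondrial genes; median -1.33 as deposited), with a sum of 66.9 to 363 FPKM in HCD and 233 to 1027 FPKM in NCD, so the groups overlapped. Defa22, which was not tested, was listed at 0 in all but 1 NCD library. Plasma cells, also rich in ER, had 1 of 4 tested markers higher as deposited (Jchain), 2 without mitochondrial genes, and none lower. All 4 haemoglobin genes rose, with a median of 2.97.

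The libraries carry numbers with a gap between the third and the fourth of each group, so both blocks were also fitted alone. In replicates 1 to 3, 8 of the 46 genes were lower and none higher, against 9.75% and 4.01% of all rows, with a median of -0.48 beside -0.25. In replicates 4 and 5, 0 of the 46 passed in limma in either direction, against 0.107% lower and 0.436% higher of all rows, and without adjustment 14 were lower and 1 higher at p under 0.05, with a median of -0.34 beside -0.11. All 20 genes called lower over all libraries had negative differences in both blocks. They were called on these same libraries, which favours that sign, so it is no separate support. Finally, 18 of the 49 genes share exon bases with another annotated gene, among them Sec11a, Srpr, Srprb, Ssr2, Sec61a1, Srp9, Spcs1, Sec24c and Copa. Reads on the shared bases may come from either gene. No strand setting is stated, and it would not separate genes on the same strand, such as Sec11a and Nmb. The extent of the overlaps was not measured.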

How the data were processed

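Poly-A RNA of 10 libraries was extracted with TRIzol and selected with poly-T beads, per the labels' protocols. The authors deposited FPKM, 1 column per library, and the submitters' processing notes name HISAT2, StringTie and GRCm38, and also DESeq2 and edgeR. The sources used here give neither versions nor annotation nor strand setting (not stated). Counts were not used, so depth is unknown and no count test was run. Symbols turned into dates were restored in 27 rows by identifier. FPKM as deposited were tested with limma 3.58.1 (R 4.3.3, trended variance) on log2(FPKM + 1), over 10321 rows with a mean of at least 1 FPKM, with Benjamini-Hochberg adjustment over all of them at 0.05. The fold changes of low genes are understated on this scale. The limma procedure was also run on simulated data with known differences. That simulation drew independent noise for each row. It held neither the mitochondrial shift nor the trends with length and GC content of single libraries, so it does not cover them. Pairs of genes were tested by exact permutation (scipy 1.17.1). Coordinates come from GENCODE M21 and promoters from RefSeq, both on GRCm38.

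Members and lists were chosen with earlier results of these data known. Values in each library were given for the 3 members of each role with the smallest p and for the one with the highest mean, and also for Sec23a and Sec24d, which were chosen after their values were seen. Up to 3 genes with the smallest p were named from each list, beside Hspa5, Xbp1, Sar1a, Sar1b and Preb. Alternatives were other pseudocounts, filters and scalings, leaving out each library, a replicate block and both number blocks; the correction for length and GC content and those for the gene pairs were chosen after seeing the data. No pair of libraries was identical.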

Additional observations from a re-analysis of the deposited data

Results flagged for a closer look

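Values stood out in 9 of 152 groups of 5 libraries, by a gap to the nearest library that was large for the range of the group; chance gives about 5%. The coat sum of HCD replicate 1 was 755 FPKM, below 990.5 to 1005 FPKM in the other HCD libraries. Ssr4 was lowest in NCD replicate 3 at 209 FPKM, with the other NCD libraries at 248 to 258 FPKM. Copg1 was highest in NCD replicate 3 at 54.3 FPKM, against 43.9 to 45.6 FPKM in the others. Sec22a was highest in HCD replicate 3 at 6.39 FPKM, against 2.74 to 3.73 FPKM in the other HCD libraries. Outside the members, Rpn2 was high in HCD replicate 5 (88.7 FPKM), Bcap31 high in HCD replicate 3 (186 FPKM), Lman2 low in HCD replicate 1 (66.7 FPKM), Bnip1 low in HCD replicate 2 (16.3 FPKM) and Pdcd6 high in NCD replicate 1 (199 FPKM).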

How the results depend on the processing

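The count of 20 lower genes was 20 with a pseudocount of 0.1, 21 with a filter at 5 FPKM, 22 as TPM, 15 with no filter and 15 with the correction for length and GC content. It was 12 with mitochondrial genes left out of the scaling, 11 after quantile normalization, 8 in replicates 1 to 3 and 0 in replicates 4 and 5; those blocks hold fewer samples, and otherwise the cause was not tested. Leaving out 1 library gave 14 (without NCD replicate 1) to 21 (without HCD replicate 2), and 14 of the 20 genes passed each time. No member was called higher by limma under any of the 20 alternatives, and at most 1 was without adjustment. The median of members minus that of all rows was -0.22, stayed between -0.27 and -0.19 with 1 library left out, and was -0.37 with no filter, where more rows near 0 enter. No called gene changed sign in any alternative, and 13 uncalled ones did. Of the uncalled genes, 3 (Ssr3, Sec13 and Cope) passed in some alternative. The 3 gene pairs that passed lost the threshold with a pseudocount of 0.1, as TPM and without mitochondrial genes.

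Replicate numbers showed no consistent pairing: same-numbered libraries correlated at 0.218, -0.235, -0.197, 0.00793 and 0.0962. HCD replicates 1 and 5 correlated best with their own number, so the check cannot exclude a pairing. With the replicate block 18 genes were lower. Depth is unknown, so low genes such as Sec61a2 carry more counting error than FPKM show, and the labels do not separate diet from ovalbumin.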

Other observations

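Sec16a, the largest positive difference among the members, differed between the number blocks, with log2 differences of -0.09 in replicates 1 to 3 and 1.02 in replicates 4 and 5; the difference between blocks was not tested. Its FPKM overlapped between HCD and NCD over all libraries.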
